A study of Mus musculus with 12 samples.

Results

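Meg3, Rian and Mirg are long non-coding RNAs of the imprinted Dlk1-Dio3 domain on mouse chromosome 12. They were examined here for m6A (N6-methyladenosine), the methylated adenosine of poly(A)+ RNA that the demethylase FTO can revert. Members were the m6A peaks overlapping a window around each gene in mm9: Meg3 at chr12:110779000-110810200, Rian at chr12:110842000-110900200 and Mirg at chr12:110973000-110988000. These windows held 36 of the 148097 peaks in 4 lists. By list they held 11 and 12 peaks at 6 weeks of age (replicates 1 and 2) and 6 and 7 at 2 weeks.

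Imprinted genes are read from the allele of one parent only, and in this domain the long non-coding RNAs come from the maternal allele while Dlk1, Rtl1 and Dio3 are expressed from the paternal allele. Meg3 is a mostly nuclear RNA that is abundant in brain and lies next to the domain's imprinting control region. Rian is a host of box C/D small nucleolar RNAs, and Mirg is a host of a large microRNA cluster. In the RefSeq table for GRCm38, which served here for names and neighbours only, the order was Dlk1, Meg3, Rtl1, Rian, Mirg and Dio3, and Rtl1 overlapped both Meg3 and Rian. Rtl1 is read from the opposite strand. The libraries were made with a kit that does not mark strand, so tags from Rtl1 and from its neighbours cannot be told apart where they overlap.

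The hosts differ in the microRNAs that they hold. RefSeq (GRCm38.p6) places 3 mature microRNAs wholly inside Meg3, 6 inside Rian and 19 inside Mirg, and 28 hairpins in the stretch between Rian and Mirg. The examples below were chosen to show 1 or more products of each host, with the seed (bases 2 to 8) in capitals:
mmu-miR-770-5p, in Meg3: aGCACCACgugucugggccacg
mmu-miR-370-3p, in Rian: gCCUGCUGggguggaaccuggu
mmu-miR-341-5p, in Rian: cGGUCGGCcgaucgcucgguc
mmu-miR-453, in Mirg: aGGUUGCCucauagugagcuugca
mmu-miR-496a-5p, in Mirg: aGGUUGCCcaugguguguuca
mmu-miR-409-3p, in Mirg: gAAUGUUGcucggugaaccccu
mmu-miR-410-3p, in Mirg: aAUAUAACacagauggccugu
Among the 28 mature sequences, miR-453 and miR-496a-5p shared a seed, GGUUGCC, and the other seeds occurred once each. The letters GGACU, a frequent context of m6A, were absent from the 14 hairpins inside the 3 genes, read on the hairpin's own strand. They occurred in 8.16% of the 1005 mouse hairpins in the table. Whether 0 of 14 differs from that share was not tested. The libraries hold fragments of poly(A)+ RNA, so the values below belong to the host transcripts and not to mature microRNAs.

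The lists came from hippocampus of male wild-type C57BL/6 mice, with 2 libraries at 6 weeks and 2 at 2 weeks. In m6A-IP an m6A antibody captures fragments of RNA, and a peak is a stretch with more sequence tags than a control of unselected fragments, the input. The other 8 of the 12 samples, among them adult Fto knockout and wild-type hippocampus, were not analysed here. In units of 1M tags, IP depth was 16.1 and 16.5 at 6 weeks and 23.4 and 23.0 at 2 weeks, and control depth was 15.8 and 11.7 at 6 weeks and 29.3 and 16.8 at 2 weeks. In IP and control libraries alike, the 2-week ones were deeper, so depth and age cannot be told apart. In all, 33239 and 36494 peaks were called at 6 weeks, against 39259 and 39105 at 2 weeks. The labels number the libraries as biological replicates without naming animals, so p-values measure only the spread between these samples. With 2 libraries per age, no exact two-sided test of 1 value can give a p under 0.33. The lists carry no gene names, so the hippocampal label was not checked against marker genes. In bulk tissue, fewer cells of a type and less RNA per cell cannot be told apart.

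Peaks were denser in the Meg3 and Rian windows than on chromosome 12 as a whole. In sum, the 3 windows held 23 peaks at 6 weeks and 13 at 2 weeks. The Meg3 window held 4 and 3 peaks at 6 weeks and 2 and 3 at 2 weeks. The Rian window held 6 and 8 at 6 weeks and 4 and 3 at 2 weeks. The Mirg window held 1 and 1 at 6 weeks and 0 and 1 at 2 weeks. Together this came to 3.31 and 3.29 member peaks per 10000 peaks of the list at 6 weeks and 1.53 and 1.79 at 2 weeks. By window the counts of the ages overlapped in Meg3 and in Mirg, and not in Rian. Whether other windows of the genome differ in this way was not tested. Per 100 kb, the Meg3 window had 12.8 and 9.62 peaks at 6 weeks and 6.41 and 9.62 at 2 weeks, and the Mirg window 6.67 and 6.67 at 6 weeks and 0 and 6.67 at 2 weeks. The Rian window had 10.3 and 13.7 peaks at 6 weeks and 6.87 and 5.15 at 2 weeks. Chromosome 12 as a whole had 1.10 and 1.27 at 6 weeks and 1.30 and 1.34 at 2 weeks. That value covers the whole span from first to last peak, stretches outside genes included. The density in windows of other expressed genes was not examined. The stretch between the Meg3 and Rian windows was denser still, at 22.0 and 31.4 at 6 weeks and 18.9 and 12.6 at 2 weeks.

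**Figure D1:**
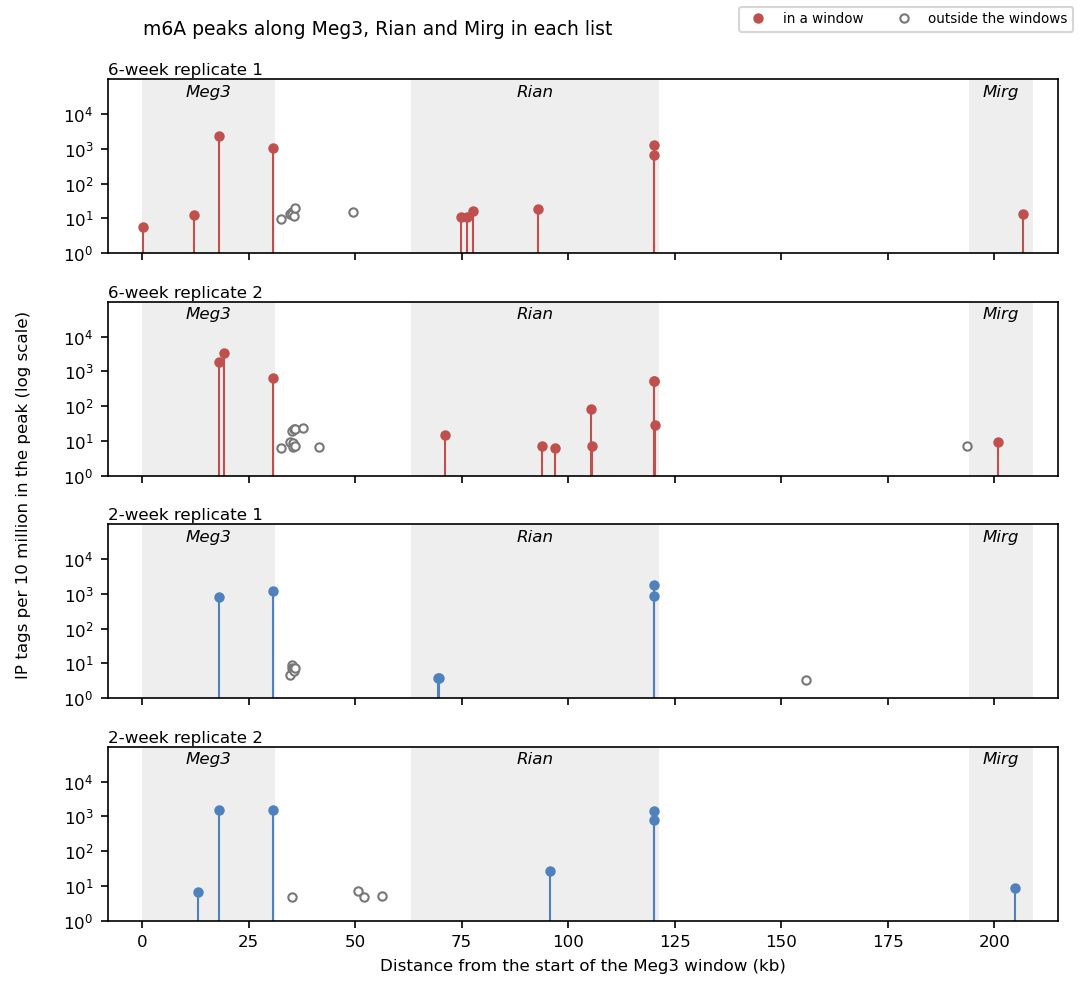
IP tags of each peak per 10M tags of its library (log scale) against its distance in kb from the start of the Meg3 window, with 1 panel per list, 6 weeks above 2 weeks. Grey bands are the windows, filled points are peaks inside them and open points are peaks outside. Tall peaks stand at the same places in all 4 panels, 2 in Meg3 and 1 group at the end of Rian, with 1 more in Meg3 in 6-week replicate 2, and most other points lie under 100 tags per 10M.

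Peaks of all lists merged into 21 member regions, 6 in Meg3, 12 in Rian and 3 in Mirg. Of these, 3 were called in all 4 lists, 2 in Meg3 and 1 in Rian, which is 14.3% of the member regions against 14.4% of all 70674 regions. The other 18 were called in a single list (85.7%, against 58.6% of all regions). Of the single-list regions, 14 came from a 6-week list and 4 from a 2-week list, a 6-week share of 77.8%. Over all single-list regions, 22047 came from a 6-week list and 19402 from a 2-week list, a 6-week share of 53.2%. None of the 21 was called in both lists of one age and neither of the other, where 1.92% of all regions were so called at 6 weeks and 6.41% at 2 weeks.

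The 3 shared regions carried most of the called signal, apart from the Meg3 window of 6-week replicate 2. They held 99.5% and 43.0% of the IP tags in Meg3 peaks at 6 weeks and 100% and 99.8% at 2 weeks, and 97.2% and 90.3% of those in Rian peaks at 6 weeks and 99.7% and 98.8% at 2 weeks. They were also among the strongest in the lists. By mean IP tags per 10M over the 4 libraries, the Rian region ranked 22 among the 10203 regions called in all lists, the upstream Meg3 region 40 and the downstream Meg3 region 106. By mean control tags they ranked 34, 39 and 57 in the same order. Their enrichment was not among the highest of those regions. The median fold over control, an authors' value, was 5.86 in the upstream Meg3 region and 4.78 in the downstream one. Both were below the median of 7.33 over those 10203 regions. Of the regions, 69.5% were higher than the upstream Meg3 region and 85.4% higher than the downstream one. In the Rian region, where the highest of the overlapping peaks was taken in each list, it was 9.16, above that median, and 32.1% of the regions were higher still. The place of Rian depended on this choice. In its peak with the most IP tags, the fold was 11.8 and 5.22 at 6 weeks and 5.67 and 5.80 at 2 weeks. Those values were below 7.33 in every list but 6-week replicate 1.

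The upstream Meg3 region, chr12:110797009-110797129, lay 18009 bp into the window. Its control tags, which reflect the level of the RNA, were 315 and 288 per 10M at 6 weeks, against 186 and 274 at 2 weeks. Both 6-week libraries were above both 2-week libraries, a pattern that 6.88% of 4577 regions showed, namely those with 1 peak, and no more, per list. Its IP tags were 2356 and 1820 per 10M at 6 weeks, against 829 and 1477 at 2 weeks, again with no overlap, as in 6.49% of those regions. The fold over control in the deposited lists was 7.48 and 6.33 at 6 weeks and 4.46 and 5.38 at 2 weeks, higher without overlap. The IP to control ratio was so in 17.9% of the 4223 regions of this kind with a control tag in each library.

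In the fits across all 4577 regions the upstream region did not pass the threshold. The log2 change at 6 weeks over 2 weeks, after TMM scaling, was 0.94 ± 0.31 in control tags (SE; edgeR adjusted p = 0.0920), 1.30 ± 0.48 in IP tags (adjusted p = 0.176) and 0.39 ± 0.38 in the ratio of IP to control (adjusted p = 0.999). The IP change was called by DESeq2 (adjusted p = 0.0472), and by edgeR without 6-week replicate 1 (1.42, adjusted p = 0.0208) or without 6-week replicate 2 (1.16, adjusted p = 0.0384). With total tags in place of TMM the change was 0.39 in control tags (edgeR adjusted p = 0.537) and 0.86 in IP tags (adjusted p = 0.516). Over the alternatives the log2 IP change ranged from 0.86 to 1.68, and with no library left out DESeq2 alone called it.

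The downstream Meg3 region, chr12:110809622-110809761, ended 439 bp before the window's end. Its control tags were 158 and 149 per 10M at 6 weeks, against 241 and 356 at 2 weeks. Both 6-week libraries were the lower ones, which was common, since 48.0% of the 4577 regions showed it. Its IP tags were 1049 and 653 per 10M at 6 weeks, against 1240 and 1571 at 2 weeks, lower without overlap, as in 43.2% of those regions. The fold over control was 6.63 and 4.37 at 6 weeks and 5.15 and 4.41 at 2 weeks, where the ages overlapped.

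No change of the downstream region passed the threshold either. Its log2 change was -0.41 ± 0.32 in control tags (SE; edgeR adjusted p = 0.581), -0.33 ± 0.42 in IP tags (adjusted p = 0.738) and 0.08 ± 0.39 in the IP to control ratio (adjusted p = 0.999). With total tags it was -0.95 in control tags (edgeR adjusted p = 0.0790) and -0.72 in IP tags (adjusted p = 0.564), and without 2-week replicate 2 it was -0.21 in control tags (adjusted p = 0.873). Across all regions, 1.20% were called higher and 1.07% lower in control tags, 0.852% and 0.240% in IP tags, and 0 in enrichment, where 129 had an unadjusted p under 0.05 and DESeq2 also called 0. Of the 2 Meg3 regions, 0 were called in each of the 3 edgeR fits. With both regions summed, the Meg3 locus changed by 0.34 ± 0.28 in control tags (edgeR adjusted p = 0.601), 0.61 ± 0.36 in IP tags (adjusted p = 0.416) and 0.29 ± 0.29 in the ratio (adjusted p = 0.9995). The sum leaves out the other Meg3 peaks, and in 6-week replicate 2 it held 43.0% of the IP tags in Meg3 peaks. An unsummed peak of that library held 1223 control tags, against 337 and 175 in the summed regions. Among all 3484 loci, 1.84% were called higher and 1.55% lower in control tags, 0.144% and 0.0287% in IP tags, and 0 in the edgeR fit of the ratio, where 95 had an unadjusted p under 0.05. The direction of the summed control change depended on the scaling and was -0.21 with total tags, where the IP change was 0.20. With 1 library left out, the control change ranged from 0.14, without 2-week replicate 1, to 0.54, without 2-week replicate 2.

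The balance between the Meg3 regions does not depend on the scaling, because both are counted in the same library. In control tags, the upstream region held 497 and 337 tags at 6 weeks and 545 and 462 at 2 weeks, and the downstream region held 250 and 175 at 6 weeks and 706 and 600 at 2 weeks. The ratio of upstream to downstream was thus 1.99 and 1.93 at 6 weeks and 0.772 and 0.770 at 2 weeks. The replicates lay close together and the ages stood 2.54-fold apart (mean ± SD over 2 libraries per age, 1.96 ± 0.044 at 6 weeks and 0.771 ± 0.00138 at 2 weeks). In IP tags the ratio was 2.25 and 2.79 at 6 weeks and 0.668 and 0.940 at 2 weeks, 3.16-fold apart. In both kinds of tags the upstream region was the larger one at 6 weeks and the smaller one at 2 weeks.

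Such a shift was set beside other pairs of neighbouring regions in a locus. The Meg3 regions, joined by their window, started 12613 bp apart, while regions of other loci were joined only when less than 10000 bp apart. The Meg3 pair was thus set beside pairs of closer regions. The ratio, this comparison and its cut at 100 tags were not part of the plan. The shares of pairs below are a description and not a test. The ages did not overlap in 41.4% of 991 pairs for control tags and 39.9% of 1093 pairs for IP tags, so a lack of overlap alone was common. A log2 change at least as large as the Meg3 one was seen in 12.9% of pairs in control tags, and in 1 of the 23 pairs with at least 100 tags in every library and region, which is the Meg3 pair itself. In IP tags it was seen in 1.28% of pairs, and in 1 of 321 pairs at that depth, again the Meg3 pair. In edgeR's test of region use within loci, run over 1922 regions, neither Meg3 region passed in control tags (unadjusted p = 0.0666 upstream and 0.0280 downstream, adjusted p = 0.9998 for both) or in IP tags (unadjusted p = 0.107 and 0.0222, adjusted p = 1.0 for both). That test called 0 regions in control tags, with 67 at an unadjusted p under 0.05, and 0.0520% of the regions in IP tags. The downstream peak of 6-week replicate 1 started up to 39 bp from those of the other lists, and the part of this offset in the ratio was not tested.

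**Figure D2:**
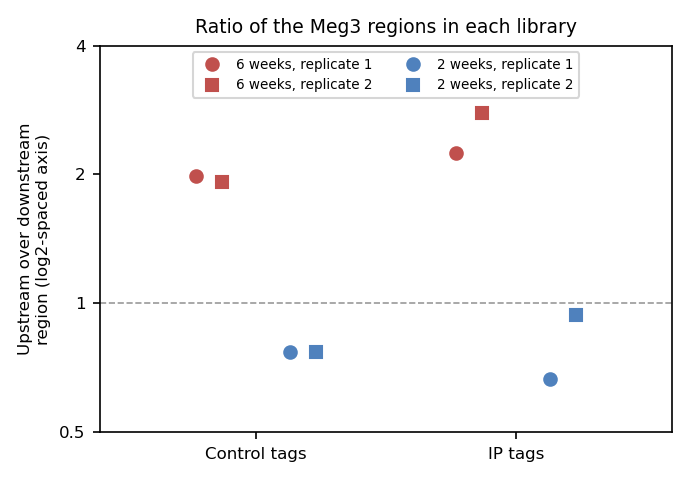
Ratio of upstream to downstream Meg3 tags (log2-spaced axis) in control and IP tags, 1 point per library, 6 weeks left of 2 weeks. The 6-week libraries lie between 1.93 and 2.79 and the 2-week libraries between 0.668 and 0.940, on either side of the dashed line at 1.

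Another strong Meg3 peak was called in 1 list only. At chr12:110798137-110798237, 1008 bp beyond the upstream region, 6-week replicate 2 had 5406 IP tags and 1223 control tags. It ranked 11 by IP tags among the 36494 peaks of its list and held more IP tags than any other member peak there. Its fold was 3.14, where the lists begin at 3. The lists give no tags for a stretch that was not called, so its level in the other 3 libraries is unknown. The remaining Meg3 peaks were 3 weak ones of 9 to 20 IP tags, 2 in 6-week replicate 1 and 1 in 2-week replicate 2, and 1 of them stood at the start of the window, at chr12:110779194-110779294.

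The Rian region, chr12:110898996-110899299, ended 901 bp before the window's end and was made of overlapping peaks, 2 and 3 at 6 weeks and 2 and 2 at 2 weeks. The peak with the most IP tags in each list had 1269 and 526 IP tags per 10M at 6 weeks, against 1783 and 1388 at 2 weeks. Its control tags were 108 and 101 per 10M at 6 weeks, against 315 and 239 at 2 weeks. Both measures were lower at 6 weeks with no overlap. Summed over the region's peaks, control tags were 191 and 136 per 10M at 6 weeks, against 456 and 359 at 2 weeks, and IP tags were 1945 and 1065 at 6 weeks, against 2648 and 2169 at 2 weeks. Among the 10203 regions called in all lists, 43.0% were lower at 6 weeks without overlap in control tags and 38.3% in IP tags, and 7.41% were higher in each. Overlapping peaks of a list may share tags, so the sums are not independent counts.

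The IP to control ratio of the sums was 10.2 and 7.85 at 6 weeks, against 5.80 and 6.05 at 2 weeks. It was higher at 6 weeks without overlap, as in 18.4% of the 9444 regions called in all lists with a control tag in each library. In single peaks, the deposited fold reached 11.8 and 8.15 in 6-week replicate 1, and 5.22, 18.2 and 4.08 in 6-week replicate 2, against 5.67 and 6.11 in 2-week replicate 1 and 5.80 and 6.54 in 2-week replicate 2. The peak at 18.2-fold rested on 33 control tags.

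With all 4 libraries and edgeR, Rian was the only member with a fitted change past the threshold. In the fit of all loci of regions called in all lists, its control tags fell by 1.04 on the log2 scale (SE 0.30; edgeR adjusted p = 0.0394), lower in both 6-week libraries, where 1.33% of the 5958 loci were called higher and 1.39% lower. This call did not hold when 1 peak per list was used (-0.88 ± 0.30, adjusted p = 0.0764, with 1.64% of loci called higher and 1.31% lower), without the width offset (-0.81, adjusted p = 0.334), with a mean of at least 5 control tags (-1.02, adjusted p = 0.0745) or in DESeq2 (-1.01, adjusted p = 0.0957). It was also lost without 6-week replicate 2 (-0.65, adjusted p = 0.340), without 2-week replicate 1 (-0.76, adjusted p = 0.681) and without 2-week replicate 2 (-1.27, adjusted p = 0.117), and it held without 6-week replicate 1 (-1.57, adjusted p = 0.0020). The control call also held with total tags in place of TMM (-1.54, edgeR adjusted p = 0.000476). With that scaling, 26 of the 5958 loci were called higher and 699 lower. The log2 change of IP tags was -0.59 ± 0.35 (edgeR adjusted p = 0.390) and that of the ratio 0.46 ± 0.28 (adjusted p = 0.999), neither past the threshold. The IP change was -1.03 without 6-week replicate 1 (edgeR adjusted p = 0.104) and -0.26 without 6-week replicate 2 (adjusted p = 0.650), and without 2-week replicate 1 it was -0.36 (adjusted p = 0.917). It was -0.35 without the width offset (adjusted p = 0.665). Over all 5958 loci, 0.117% were called higher and 0.0671% lower in IP tags, and 0 in the edgeR fit of the ratio, where 175 had an unadjusted p under 0.05.

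**Figure D3:**
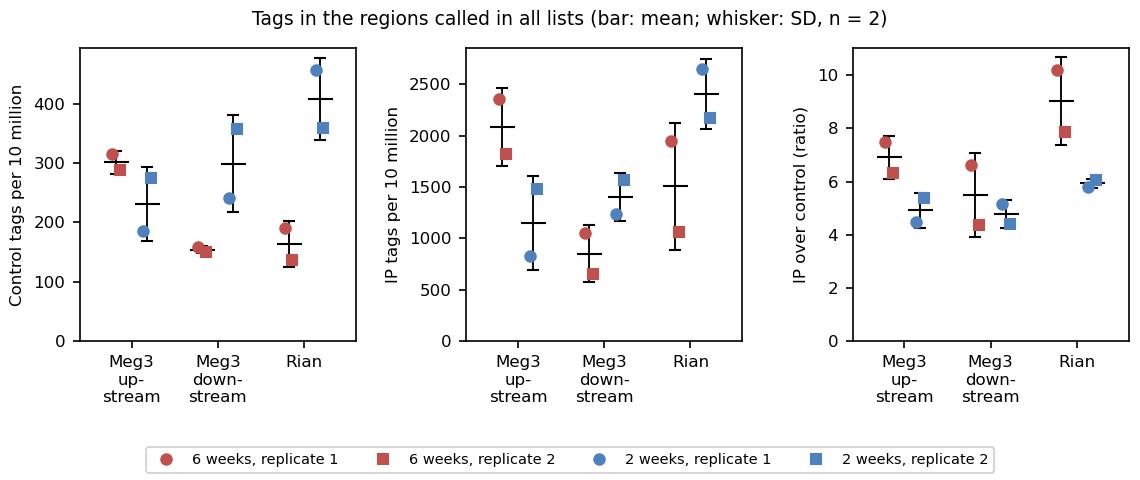
Control tags and IP tags per 10M tags of the library, and their ratio, in the 3 regions called in all lists, with each library as a point, 6 weeks left of 2 weeks, and the mean and SD (n = 2) as a bar and whisker; Rian values are sums over the region's peaks. Control tags at 6 weeks lie above those at 2 weeks in the upstream Meg3 region and below them in the downstream Meg3 and Rian regions.

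**Figure D4:**
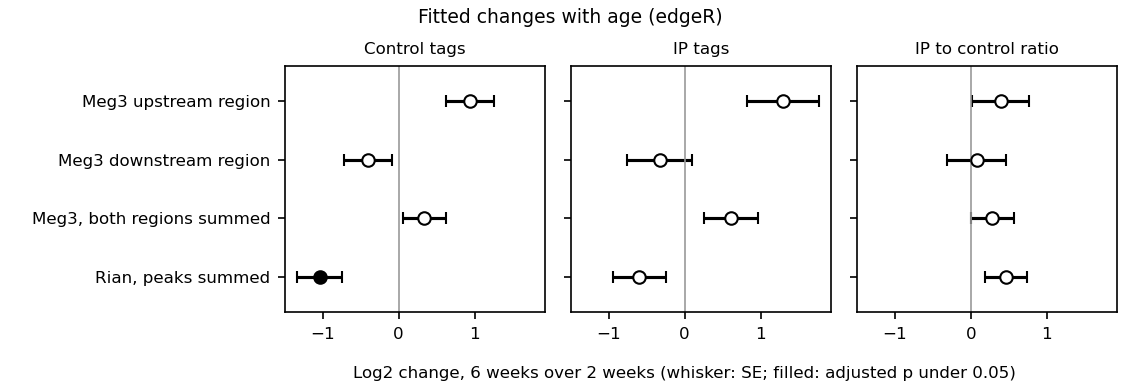
Log2 change from edgeR with its SE (horizontal axis, 6 weeks over 2 weeks) for the Meg3 regions, their sum and Rian (rows), in control tags, IP tags and their ratio (panels). The filled point, Rian in control tags at -1.04, is the only one here with an adjusted p under 0.05.

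Outside its shared region, the Rian window was covered by weak, scattered peaks: 12 peaks of 9 to 132 IP tags in 11 regions, each called in 1 list. They included 4 in 6-week replicate 1, 5 in 6-week replicate 2, 2 overlapping ones in 2-week replicate 1 and 1 in 2-week replicate 2. The strongest was chr12:110884312-110884412 in 6-week replicate 2, with 132 IP tags and 24 control tags at 3.90-fold. At 2 weeks the strongest was chr12:110874746-110874846 in replicate 2, with 62 IP tags and 13 control tags at 3.50-fold. The highest folds rested on almost no control tags: chr12:110853886-110853986, at 33.3-fold in 6-week replicate 1, had 17 IP tags and 0 control tags, which allows up to 3 control tags and covers counting error only. These folds use the caller's 0.5 tag in place of 0.

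Mirg carried little called m6A signal. It had 21 IP tags and 5 control tags at chr12:110985715-110985815 in 6-week replicate 1, and 15 and 2 tags at chr12:110979680-110979780 in 6-week replicate 2. In 2-week replicate 2 it had 20 and 4 tags at chr12:110983716-110983816, and 2-week replicate 1 had no peak. The folds were 4.11 and 5.32 at 6 weeks and 3.67 at 2 weeks. The 3 peaks lay at different places, so no Mirg region could be compared between the ages. A further peak, of 12 IP tags and 0 control tags in 6-week replicate 2, ended 407 bp before the window.

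Between the windows, peaks gathered after Meg3. The stretch from the Meg3 to the Rian window, where RefSeq order places Rtl1, held 7 and 10 peaks at 6 weeks and 6 and 4 at 2 weeks, or 22.0 and 31.4 per 100 kb at 6 weeks and 18.9 and 12.6 at 2 weeks. Most stood in 1334 bp at chr12:110813658-110814992, which held 5 regions, 1 called in all 4 lists and 3 in 3 lists. The peaks in that cluster were weak, with 11 to 37 IP tags and 0 to 6 control tags at 6 weeks, and 11 to 21 IP tags and 0 to 5 control tags at 2 weeks. Their IP tags summed to 73.8 and 95.7 per 10M at 6 weeks and to 41.0 and 4.79 at 2 weeks, from 5 and 7 peaks at 6 weeks and 6 and 1 at 2 weeks. A region at chr12:110811483-110811613 was called in both 6-week lists and in neither 2-week list, on 15 and 10 IP tags and no control tag. By contrast, the 72.8 kb between Rian and Mirg held 0 and 1 peaks at 6 weeks and 1 and 0 at 2 weeks, and the 99.0 kb before Meg3, on the side of Dlk1, held 0 and 0 at 6 weeks and 0 and 1 at 2 weeks. Downstream of Mirg, on the side of Dio3, 542 kb held 0 and 1 peaks at 6 weeks and 6 and 7 at 2 weeks, with 2 regions called in both 2-week lists and neither 6-week list.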

How the data were processed

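Members and lists were chosen with earlier results of these data known. Each m6A-IP library has its own deposited HOMER peak list in mm9 coordinates, so replicates were not pooled. The submitters' processing notes name HOMER, Bowtie2 2.2.3, TopHat2 2.0.13 and 2.1.1 and Cufflinks 2.2.1, with no roles. For caller options, and for which input library served as control, the sources used here give nothing.

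Per the file headers, the deposited signal columns hold IP and control tags scaled by 1 constant per library. IP tags are whole counts in the deposited list of 2-week replicate 1. The fold ratio over control, the p-value and the score of each peak are the authors' values, as is the deposited focus ratio, a fraction that was not used. The lowest deposited fold was 3 and the highest p-value 8.32e-05. Whole tags were recovered by dividing by the value of 1 tag. In all 4 lists 100% of peaks gave whole values to within 0.2 tag. A control of 0.5 tag was set to 0. Depths assume HOMER's default scaling to 10M tags. All peaks carry a plus sign, so strand was ignored.

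Regions are sets of peaks, from any list, that overlap by 1 bp or more. Regions with exactly 1 peak in each list were fitted together with edgeR 4.0.16 (quasi-likelihood test, TMM scaling, width offset, Benjamini-Hochberg adjustment, threshold 0.05), for control tags, IP tags, and the interaction of fraction with age (enrichment). Tags were also summed by locus (regions less than 10000 bp apart, and each window). No Rian region had exactly 1 peak per list, so its values come from a fit of all regions called in all 4 lists, planned as an alternative. The test of region use within loci (edgeR's diffSpliceDGE) was chosen after the values were seen. The ratio of the Meg3 regions and its comparison with other pairs were not planned either. DESeq2 1.42.0, other scalings, filters, a replicate block and leaving out each library were alternatives. Named regions were the 8 with the most IP tags among those called in all lists, those past the threshold, the highest fold and up to 4 called at one age only. In each window this took all regions called in all lists. The single-list regions described were chosen after their values were seen. The fits were also run on simulated data with less spread between libraries than was fitted in the real control and IP tags. No result here rests on that run. Python 3.11.15, pandas 2.3.3, numpy 2.4.6 and R 4.3.3 were used.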

Additional observations from a re-analysis of the deposited data

How the results depend on the processing

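All values rest on 2 libraries per age, with deeper IP and control libraries at 2 weeks and no tags outside called peaks. With total tags in place of TMM, the median log2 change of all regions moved to -0.53 in control tags, -0.37 in IP tags and 0.15 in enrichment, and the Meg3 locus reversed to -0.21 in control tags. The Rian control change stayed past the threshold with total tags (-1.54). It was no longer past it in DESeq2 (-1.01), with a mean of at least 5 control tags (-1.02), without a width offset (-0.81) and with 1 peak per list (-0.88). It ranged from -1.57 to -0.65 with 1 library left out. These Rian alternatives were chosen after seeing the data. The downstream Meg3 enrichment ranged from -0.027 to 0.193 with 1 library left out, and reversed without 2-week replicate 2. Members called in IP tags numbered 1 with DESeq2 and 0 to 1 with 1 library left out. At 8-fold or more, 9 member peaks remained at 6 weeks and 1 at 2 weeks. Those outside the shared Rian region had 0 or 1 control tags each. At that cut 1 region, that of Rian, was called at 6 weeks alone. With 1 library left out, member regions called at 6 weeks alone numbered 0 to 7, and those at 2 weeks alone 0 to 3. There, 1 call sufficed for the age left with 1 list. No share over all peaks or regions is given for the counts at 8-fold or with 1 library left out.

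Over all regions, edgeR control calls, 55 higher and 49 lower, turned into 21 and 370 under total tags. DESeq2 gave 22 and 14, starts within 20 bp 14 and 14, and leaving out 1 library 0 to 84 and 0 to 72. IP calls, 39 higher and 11 lower, turned into 0 and 0 under total tags, 60 and 45 in DESeq2, 14 and 1 with at least 5 control tags, 17 and 5 with starts within 20 bp, and 3 to 402 and 1 to 325 with 1 library left out. Enrichment calls, 0 in edgeR, numbered 20 and 1 without 6-week replicate 2. Same-numbered libraries deviated together with r = 0.030 in control tags and 0.026 in IP tags, and no label ties a number to an animal. With the replicate block the Rian control change was -1.08 (edgeR adjusted p = 0.00644), no member call changed, and 112 and 78 regions were called in IP tags.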
